A study of Mus musculus with 6 samples.

Results

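The small heat shock protein genes Hspb1, Cryab, Hspb7 and Hspb8 were followed in mouse skeletal muscle after electrical pacing and in unpaced sham muscle. The probes used were those to which the platform annotation gives exactly 1 of these 4 symbols. This gave 13 probes of 13872 on the array, 6 for Hspb7, 3 for Hspb1, 3 for Cryab and 1 for Hspb8, among 6609 probes with 1 symbol. The muscle of mice with an implanted but inactive pacer (sham) was harvested when the 0 h muscle was. The other 5 groups had been paced for 3 h and were harvested 0 h, 1 h, 3 h, 8 h or 24 h after pacing ended, and values on the paced arrays are given in that order throughout. Each group had 1 array with 2 channels, and its total RNA was set against a reference RNA from control muscle, named Pre, that all 6 arrays shared. The sources used here give no strain, age, sex or muscle, and no number of mice behind each RNA. Values are log2 ratios, converted from deposited values read as log10 and taken as sample over Pre, the likely direction from the labels, which call Pre the reference but do not state the dyes. Were the ratio the other way round, every value here would change sign, higher would read lower, and ranks would count from the bottom. A group had a single array, so nothing could be tested or checked against replicates, and "2-fold" below means a log2 difference of at least 1. The sham array stood apart, with the widest spread of ratios by robust SD (0.495, though by plain SD the 3 h and 24 h arrays were wider, at 0.547 and 0.544 against 0.529), 485 empty cells where the other 5 arrays had 0, and 154 values repeated among probes against at most 8. Ratios to Pre do not use it. They are therefore given beside the differences of the member probes and of the chaperone and other pathway genes named at 24 h. Sham shares its harvest time with the 0 h group, so from 1 h on a difference from sham mixes pacing with elapsed time.

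Small heat shock proteins are chaperones that work without ATP. They assemble into oligomers through a shared alpha-crystallin domain, hold unfolding proteins in a soluble state and pass them to the Hsp70 system or to degradation. Striated muscle is rich in them. Hspb1 (Hsp25) is phosphorylated by the p38 and MK2 kinase path and acts on actin filaments. Cryab (alpha-B crystallin) protects desmin and also filaments of the sarcomere, and Hspb7 is largely restricted to heart and skeletal muscle. Hspb8 works with the co-chaperone Bag3 to send damaged filament proteins to autophagy.

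Heat shock factors bind inverted repeats of the unit GAA. The bases upstream of the annotated start are shown because they let the promoters be set beside the responses described below. RefSeq sequences on GRCm38.p6 matched 3 of the 4 genes, Hspb7, Hspb8 and Hspb1. Each line holds the 250 bases before the start, 5′ to 3′ on the gene's strand, with matches to GAANNTTC or TTCNNGAA in capitals. The stretches lie at chr4:141420529-141420778 on the plus strand for Hspb7, chr5:116422865-116423114 on the minus strand for Hspb8 and chr5:135887669-135887918 on the plus strand for Hspb1.
Hspb7: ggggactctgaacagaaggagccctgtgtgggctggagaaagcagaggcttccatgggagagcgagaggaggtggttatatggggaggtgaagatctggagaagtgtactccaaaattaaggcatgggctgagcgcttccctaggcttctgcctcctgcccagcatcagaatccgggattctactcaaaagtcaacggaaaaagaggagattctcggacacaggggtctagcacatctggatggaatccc
Hspb8: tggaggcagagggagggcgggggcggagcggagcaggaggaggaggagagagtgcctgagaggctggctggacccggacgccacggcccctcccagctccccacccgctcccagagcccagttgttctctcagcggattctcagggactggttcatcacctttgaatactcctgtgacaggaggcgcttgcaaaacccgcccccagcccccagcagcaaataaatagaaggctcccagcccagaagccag
Hspb1: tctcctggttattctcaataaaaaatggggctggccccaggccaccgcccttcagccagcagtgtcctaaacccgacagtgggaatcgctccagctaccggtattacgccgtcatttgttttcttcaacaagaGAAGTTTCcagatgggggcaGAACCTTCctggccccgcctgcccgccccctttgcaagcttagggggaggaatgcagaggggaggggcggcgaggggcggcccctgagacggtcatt
The Hspb1 stretch held 2 matches, GAAGTTTC at positions -117 to -110 and GAACCTTC at positions -97 to -90, counted from the start. Those of Hspb7 and Hspb8 held 0. Hspb8 had a match just past the start, GAAGTTTC at positions 3 to 10, within the transcribed bases. Among 32851 promoters of the same table, 12.8% had either motif in the 250 upstream bases. Both motifs read the same on either strand and were searched allowing overlap. The longer heat shock element of 3 alternating units (GAA, TTC and GAA, each 2 bases apart), searched on both strands, was in 0.466% of all promoters and in none of these 3. A match is a description of letters, and its absence covers only these letters in this window.

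Over the arrays, 4 of the 6 Hspb7 probes reached the highest ratios of the family. Hspb8 passed 2-fold later than these 4 probes and reached a lower ratio, and 1 of 3 Cryab probes stood high at 24 h alone. By gene means, Hspb7 and Hspb8 both first passed 2-fold above sham and Pre at 24 h. None of the 3 Hspb1 probes stood 2-fold above both sham and Pre on any array. Counted over probes, the members that were 2-fold above both sham and Pre numbered 1 of 13, 0 of 13, 4 of 13, 4 of 13 and 6 of 12 from the 0 h to the 24 h array. The background over all probes measured on both arrays was 0.568%, 0.0650%, 0.841%, 0.390% and 1.61% from the 0 h to the 24 h array. No member probe was 2-fold below both on any paced array, where 0.458%, 0.0325%, 0.580%, 0.570% and 1.43% of all probes were. Against Pre alone the member counts were 1 of 13 in sham, then 4, 3, 4 and 5 of 13 at 0 h, 1 h, 3 h and 8 h, and 6 of 12 at 24 h. The share of all probes 2-fold above Pre was 2.59% in sham and 1.73%, 0.840%, 3.40%, 1.75% and 4.44% on the paced arrays in order of time. Probes for a single gene share a target and are not replicates of a condition.

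**Figure D1:**
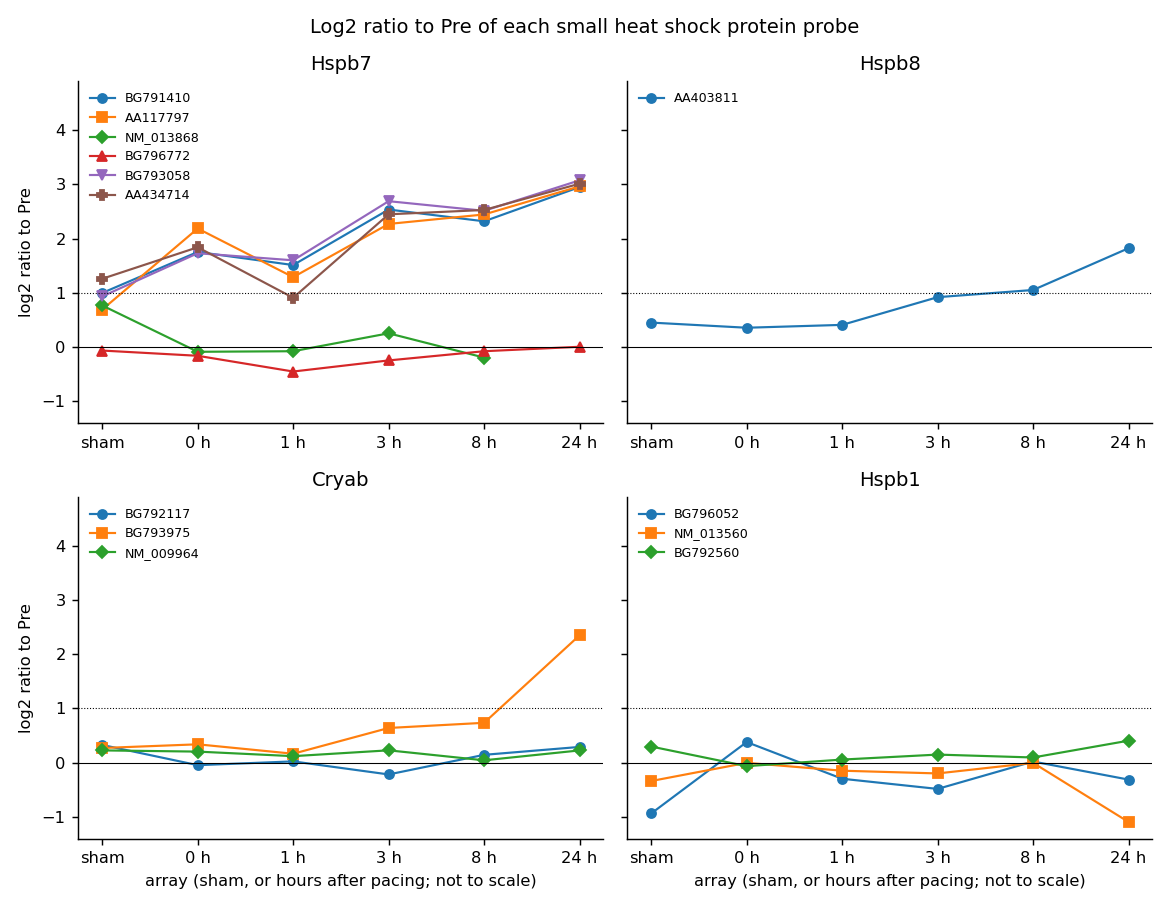
Log2 ratio to Pre (vertical axis) of each of the 13 probes on the 6 arrays (horizontal axis, evenly spaced and not to the scale of time), with a panel per gene and a line per probe named by its accession. The dotted line marks 2-fold above Pre. The 4 upper Hspb7 lines lie between 2.95 and 3.07 at 24 h, the other measured Hspb7 probe lies at 0.01, and a single Cryab line reaches 2.35.

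Hspb7 had the highest ratios of the 4 genes on every array. The probe with GenBank accession BG793058 had log2 ratios to Pre of 0.93 in sham and 1.73, 1.60, 2.69, 2.51 and 3.07 on the paced arrays in order of time. The probe BG791410 read 0.997, 1.75, 1.51, 2.53, 2.32 and 2.95 on the same arrays in that order. On both, every paced array stood above sham, and the 3 h, 8 h and 24 h arrays stood above the 2 earlier ones. The probe AA117797 read 0.69 in sham and 2.18, 1.29, 2.27, 2.44 and 2.96 on the paced arrays in order of time. It was the single member probe 2-fold above both sham and Pre at 0 h, with a difference from sham of 1.49. The probe AA434714 read 1.26 in sham and 1.84, 0.91, 2.45, 2.53 and 3.01 on the paced arrays in order of time, so its 1 h value lay below sham. These 4 probes were already above Pre in sham muscle, by 0.97 on average (SD over probes 0.23).

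Set against sham, the mean of these 4 Hspb7 probes was higher by 0.91 at 0 h (SD over 4 probes 0.40), 0.36 at 1 h (SD 0.48), 1.51 at 3 h (SD 0.24), 1.48 at 8 h (SD 0.23) and 2.03 at 24 h (SD 0.23). As folds over sham, these were 1.87, 1.28, 2.86, 2.79 and 4.08 from the 0 h to the 24 h array. The 4 probes were grouped after their values had been seen, so their closeness at 24 h, from 2.95 to 3.07, is a description. From 1 h to 3 h all 4 probes stepped up, by 0.98 to 1.54. From 3 h to 8 h the steps ran from -0.22 to 0.17, and from 8 h to 24 h from 0.48 to 0.63. The mean step was 1.16 into 3 h (SD over probes 0.26), -0.03 into 8 h (SD 0.19) and 0.55 into 24 h (SD 0.06). Because the 4 probes were picked by their 24 h ratios, the step into 24 h is a description too. The spread between probes of an array does not measure the spread between mice.

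The remaining 2 Hspb7 probes did not follow. The probe BG796772 read -0.06 in sham and -0.16, -0.45, -0.24, -0.08 and 0.01 on the paced arrays in order of time. The probe NM_013868, named by the RefSeq transcript of Hspb7, read 0.77 in sham and -0.09, -0.08, 0.25 and -0.19 on the 0 h, 1 h, 3 h and 8 h arrays. Its deposited value at 24 h is exactly 0 and was treated as not measured. All 4 of its measured paced values lay below sham, by 0.51 to 0.96, and it shared with the upper 4 probes a sham value above Pre. The gene mean over measured probes therefore mixes 2 patterns. It was 0.76 in sham and 1.21, 0.80, 1.66 and 1.59 on the 0 h, 1 h, 3 h and 8 h arrays over 6 probes, and 2.40 at 24 h over 5. The mean was 2-fold above both sham and Pre at 24 h alone, with a difference from sham of 1.64 (probe SD 0.90), and at 3 h and 8 h it fell short at 0.89 and 0.82. With the median of the probes in place of the mean, the 3 h and 8 h differences were 1.51 and 1.53. The low probe NM_013868 counts in the mean up to 8 h but not at 24 h. On the 5 probes measured on all 6 arrays, the differences were 1.17 at 3 h, 1.18 at 8 h and 1.64 at 24 h. Keeping the 0 as a value gave a difference from sham of 1.23 at 24 h.

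The order of the Hspb7 means by ratio to Pre was 24 h (over 5 probes), 3 h, 8 h, 0 h, 1 h and sham. Each neighbouring pair differed by less than the probe SD of the ratios, which ran from 0.45 in sham to 1.34 at 8 h and 24 h. That SD includes both probe patterns. Taken within probes, the step from 0 h to 1 h was -0.41 (SD 0.40) and that from 3 h to 8 h was -0.07 (SD 0.25). Spread between mice is unknown throughout.

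Hspb8, the partner of Bag3, had 1 probe, AA403811. Its log2 ratios to Pre were 0.45 in sham and 0.36, 0.41, 0.92, 1.05 and 1.82 on the paced arrays in order of time. Sham, 0 h and 1 h lay within 0.09 of each other, 3 h and 8 h within 0.13, and 24 h stood above all. Differences from sham were -0.09, -0.04, 0.47, 0.60 and 1.37 from the 0 h to the 24 h array. Hspb8 was first 2-fold above both sham and Pre at 24 h, when by gene means 2 of the 4 genes (Hspb7 and Hspb8) and 1.23% of 3180 genes were. No second probe checks it. As a yardstick, the median SD between probes of a gene was 0.38, 0.28, 0.29, 0.32 and 0.35 from the 0 h to the 24 h array for differences from sham. The Hspb8 differences at 0 h and 1 h were smaller than that yardstick, and those at 3 h, 8 h and 24 h were larger. The yardstick measures spread between probes, not the error of a single probe or the spread between arrays or mice. By difference from sham, the Hspb8 probe ranked 1421 of 11895 probes at 3 h, 1509 of 12814 at 8 h and 163 of 11868 at 24 h.

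Cryab showed its high value on 1 probe. The probe BG793975 read 0.27 in sham and 0.34, 0.17, 0.64, 0.74 and 2.35 on the paced arrays in order of time. It was 4.22-fold over sham at 24 h and at most 1.38-fold on the earlier arrays. The probe BG792117 read 0.33 in sham and -0.04, 0.03, -0.22, 0.15 and 0.29 on the paced arrays in order of time. The third, NM_009964, stayed between 0.05 and 0.23 on all 6 arrays. At 24 h the gene mean was 0.96 against Pre and 0.68 above sham, less than the probe SD of 1.21, and the median of the probes was 0.02 above sham. From sham to 8 h the gene means lay between 0.10 and 0.31, while the probe SD ran from 0.05 in sham to 0.43 at 3 h.

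The 3 Hspb1 probes differed in direction. The probe BG796052 read -0.93 in sham and 0.38, -0.29, -0.48, 0.02 and -0.31 on the paced arrays in order of time. It was therefore 2.49-fold over sham at 0 h while standing at 0.38 against Pre, and the sham value was the lowest of the 6. With AA117797 it made 2 of 13 member probes 2-fold above sham alone at 0 h, where 5.08% of all probes were. The probe NM_013560, named by the RefSeq transcript, read -0.34 in sham and -0.0015, -0.15, -0.20, -0.0016 and -1.09 on the paced arrays in order of time. Its 24 h value was the lowest ratio of any member probe and the 1 of 12 that was 2-fold below Pre, as were 2.51% of all probes. The probe BG792560 stayed between -0.06 and 0.41. The gene mean was -0.32 in sham and 0.11, -0.13, -0.18, 0.04 and -0.33 on the paced arrays in order of time. Its differences from sham, from -0.0076 at 24 h to 0.43 at 0 h, were all smaller than their probe SDs of 0.30 to 0.84.

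At 24 h, probes of the family disagreed more than those of most genes. The probe SD of the difference from sham was 1.21 for Cryab, and 2.47% of the 973 genes with several probes had a higher one. For Hspb7 it was 0.90 (7.19% higher) and for Hspb1 0.70 (14.8% higher). The SD for Hspb7 at 8 h was 1.07, with 2.58% of genes higher. Other arrays went the other way. For Cryab 71.2% of genes had a higher SD at 0 h and 83.3% at 1 h, and for Hspb1 47.2% did at 3 h. Probes named by a transcript accession that starts with NM_ varied somewhat less than others across the whole array. Their robust SD at 24 h was 0.37 over 1332 probes against 0.42 over 4600, and 4.58% against 5.11% were 2-fold above Pre. The part of this in the disagreement within Hspb7 and Cryab was not tested.

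The width of the ratios differed between arrays, from a robust SD of 0.176 at 1 h to 0.495 in sham, so ranks within each array were also taken. Among all measured probes ordered by ratio to Pre, the 4 upper Hspb7 probes ranked between 151 and 995 of 13032 in sham, 25 and 56 of 12108 at 0 h, and 41 and 137 of 12612 at 1 h. They ranked between 11 and 38 of 12191 at 3 h, 8 and 15 of 13207 at 8 h, and 12 and 16 of 12171 at 24 h. On this measure all 4 stood nearer the top on each paced array than in sham. AA434714 hardly moved at 1 h, with 1.15% of probes higher in sham and 1.08% at 1 h, and its ratio to Pre fell below its sham value. Ranked by difference from sham instead, the 4 lay between 141 and 1844 of 11792 at 0 h. At 1 h AA434714 then ranked 10048 of 12304 and the other upper probes between 864 and 1517. By ratio to Pre, the Hspb8 probe ranked 2271 in sham. On the paced arrays in order of time it ranked 1589, 632, 503, 203 and 74, closer to the top on each later array. The Cryab probe BG793975 ranked 3690 in sham and 1675, 2205, 1068, 402 and 33 on the paced arrays in order of time.

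**Figure D2:**
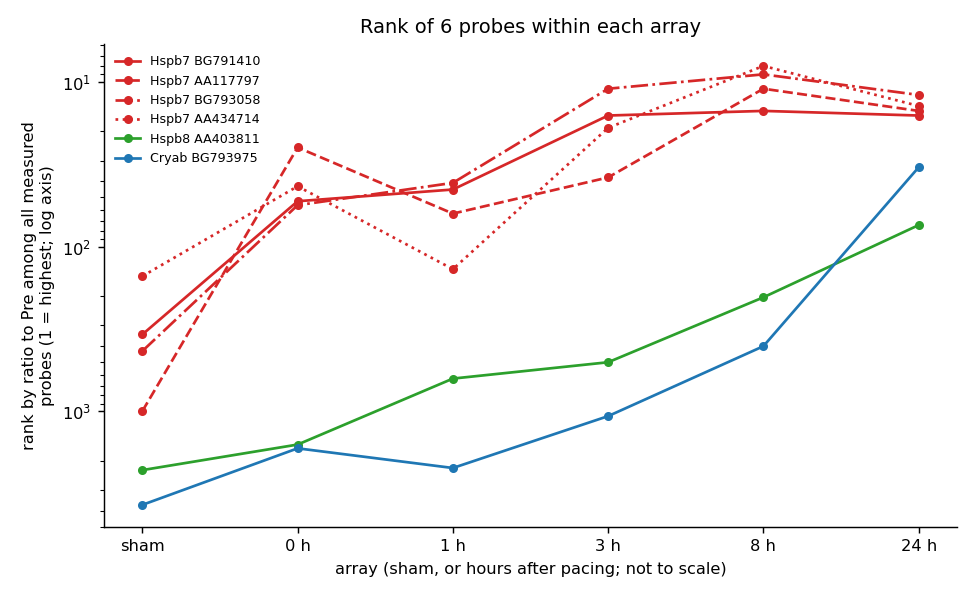
Rank by log2 ratio to Pre among all measured probes of an array (vertical log axis, 1 is the highest) for the 4 upper Hspb7 probes, the Hspb8 probe and the Cryab probe BG793975 on the 6 arrays (horizontal axis, not to the scale of time). The Hspb7 probes lie between ranks 8 and 16 at 8 h and 24 h, and the Hspb8 probe goes from 2271 in sham to 74 at 24 h.

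The first array past 2-fold depended on how the arrays were scaled. With all arrays brought to a common robust SD, the mean of the 4 Hspb7 probes was above sham by 1.54, 1.92, 1.25, 2.83 and 1.92 from the 0 h to the 24 h array. All 4 probes were then 2-fold above both sham and Pre first at 0 h, in place of 1 probe at 0 h and 3 at 3 h, though AA434714 fell short again at 1 h with 0.90 above sham. The lower 1 h mean was thus present on the deposited spread and absent after scaling. Hspb8 first passed the rule at 8 h after scaling, with differences from sham of 0.11, 0.49, 0.40, 1.19 and 1.26 from the 0 h to the 24 h array. The Cryab probe BG793975 passed at 24 h on either scale. Under both scalings the 4 upper Hspb7 probes passed on earlier arrays than Hspb8, whereas the mean of all Hspb7 probes passed at 24 h, with Hspb8, on the deposited spread and first at 1 h after scaling, with 0.75 above sham at 3 h.

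**Figure D3:**
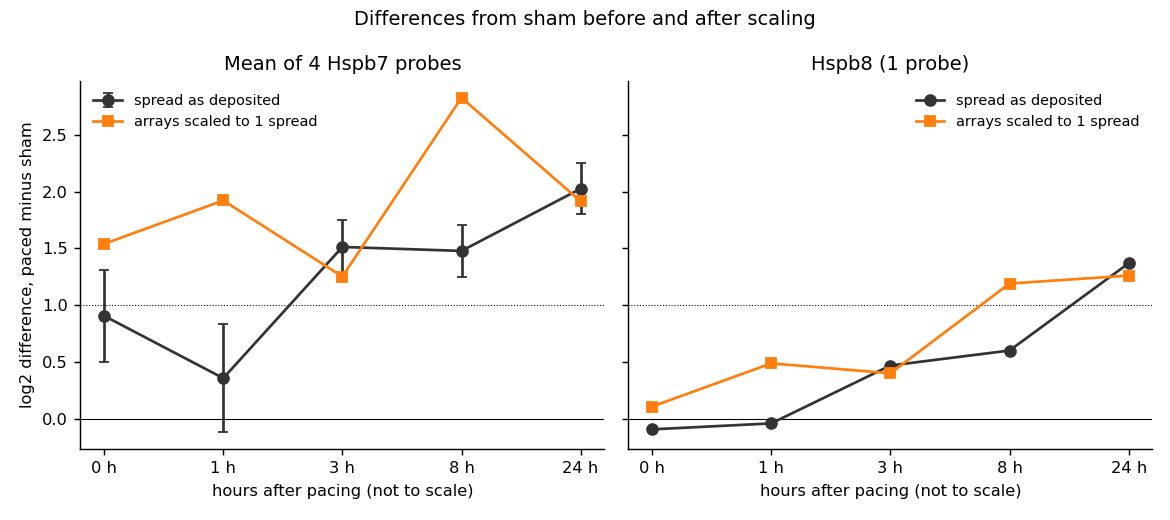
Log2 difference from sham (vertical axis) by hours after pacing (horizontal axis, not to scale) for the mean of the 4 upper Hspb7 probes (left, bars are the SD over 4 probes) and for the single Hspb8 probe (right, no error bar). Dark circles use the deposited spread and orange squares use arrays scaled to a common robust SD. The Hspb7 value at 1 h is 0.36 before and 1.92 after scaling.

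Other chaperones give the surroundings of these values, from lists of the Hsp70 system, the Hsp90 system and the chaperonins. None of 7 other small heat shock protein genes on the list was named alone on any probe. Hspb6 shares 9 probes with another symbol, and these were not used. Of 39 other chaperone genes with a value on all 6 arrays, 1 was 2-fold higher and 1 was 2-fold lower than sham at 24 h, against 3.02% and 2.80% of all 3180 genes. At 0 h, 3 of the 39 were 2-fold higher and 1 was lower, against 3.11% and 2.86% of all genes. These were Dnajb1, Dnajb9 and Chordc1 and, lower, Hspe1, of which only Dnajb1, at 1.28 above sham and 1.12 above Pre, passed against both (Dnajb9, Chordc1 and Hspe1 are named after their values were seen). At 1 h, 3 h and 8 h, 0 of the 39 passed in either direction, against 0.786%, 1.32% and 1.67% of all genes higher and 0.535%, 0.818% and 1.57% lower. The median difference from sham of the 39 at 24 h was 0.33 with 26 above sham, beside a median of 0.08 with 57.5% above sham over all genes. The gene that was higher was Hspa8, the constitutive Hsp70, at log2 ratios to Pre of 0.64 in sham and 0.78, 0.60, 1.16, 1.12 and 1.65 on the paced arrays in order of time. Its 11 probes lay close together, with a probe SD of 0.25 for the 24 h difference of 1.01, in contrast to Hspb7. The lower one was Fkbp5, an Hsp90 co-chaperone induced by glucocorticoids, at -1.12 from sham and -0.85 against Pre (1 probe). With arrays scaled to a common spread neither gene passed 2-fold, and with centring per run of probes Hspa8 did not.

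Over all genes, 3.02% were 2-fold higher and 2.80% lower than sham at 24 h, with a median of 0.08. In the Hsp70 list, 1 of 21 measured genes was 2-fold higher and 0 lower at 24 h, with a median of 0.51. Dnajb1, the Hsp40 partner that stimulates Hsp70, stood at 0.81 above sham at 24 h (1 probe). The co-chaperone Bag1 stood at -0.65 and Hsbp1, which binds heat shock factor, at -0.29. Their ratios to Pre were -0.62 and -0.19, and that of Dnajb1 was 0.66. In the Hsp90 list, 0 of 7 were higher and 1 lower, with a median of 0.30. Hsp90aa1, the inducible cytosolic Hsp90, stood at 0.95 and Hsp90b1, the Hsp90 of the endoplasmic reticulum, at 0.86. The myosin methyltransferase Smyd1 stood at -0.62. Against Pre, Hsp90aa1 stood at 1.31, Hsp90b1 at 0.43 and Smyd1 at -0.05. Of 11 chaperonin genes 0 passed in either direction. Their median was 0.10. The subunits of the cytosolic folding ring spread from Cct5 at 0.95 and Cct3 at 0.81 down to Cct4 at -0.47 and Cct2 at -0.93. In the same order, the ratios of these subunits to Pre were 0.76, 0.69, -0.51 and -0.39.

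Partners of Hspb8 in chaperone-assisted autophagy numbered 8 measured genes, of which 8 stood above sham at 24 h, with a median of 0.50. Over all genes 57.5% stood above sham, with a median of 0.08. Of the 8, 1 gene (Hspa8) was 2-fold higher and 0 lower, against 3.02% and 2.80% of all genes. Bag3 had log2 ratios to Pre of 0.21 in sham and 0.75, 0.46, 1.05, 0.99 and 0.77 on the paced arrays in order of time over 6 probes. Its largest difference from sham was 0.84 at 3 h, and at 24 h, where Hspb8 was highest, it was 0.57 (probe SD 0.59). Gabarapl1, a protein of the autophagosome membrane, stood at 0.32 and the autophagy receptor Sqstm1 at 0.14 above sham at 24 h. Against Pre, Gabarapl1 stood at 0.61 and Sqstm1 at -0.14 on that array.

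Cytoskeletal and sarcomeric genes were listed as possible clients, without a check that each is one. Among 24 measured, 0 were 2-fold higher and 1 was 2-fold lower than sham at 24 h, with a median of -0.12. Over all genes, 3.02% were higher and 2.80% lower, with a median of 0.08. The gene that was lower was Tcap, which caps titin at the Z-disc, at -1.61 (-1.21 against Pre). Myoz1, a Z-disc calcineurin binder of fast fibres, stood at -0.97 over 11 probes (probe SD 0.22), and Myoz2, its slow fibre relative, at 0.53 (probe SD 0.71). The tubulin gene Tuba1a stood highest, at 0.82. Ratios to Pre at 24 h were -0.58 for Myoz1, 0.18 for Myoz2 and 0.72 for Tuba1a. The list of the p38 and MK2 path that phosphorylates Hspb1 also held Akt1 and Akt2, which lie outside that path. Of its 6 measured genes, 0 passed in either direction. Their median of 0.19 includes Akt1 and Akt2 and is not that of the path alone. Akt1 stood at 0.48 above sham but at -0.60 against Pre. From sham, the p38 activator Map2k3 stood at 0.41 (0.15 on the 1 probe measured on both arrays). MK2 itself (Mapkapk2) stood at -0.30 from sham and p38 alpha (Mapk14) at -0.55. Against Pre, Map2k3 stood at 0.71, Mapkapk2 at -0.23 and Mapk14 at 0.13, with Mapk14 at 0.68 in sham.

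**Figure D4:**
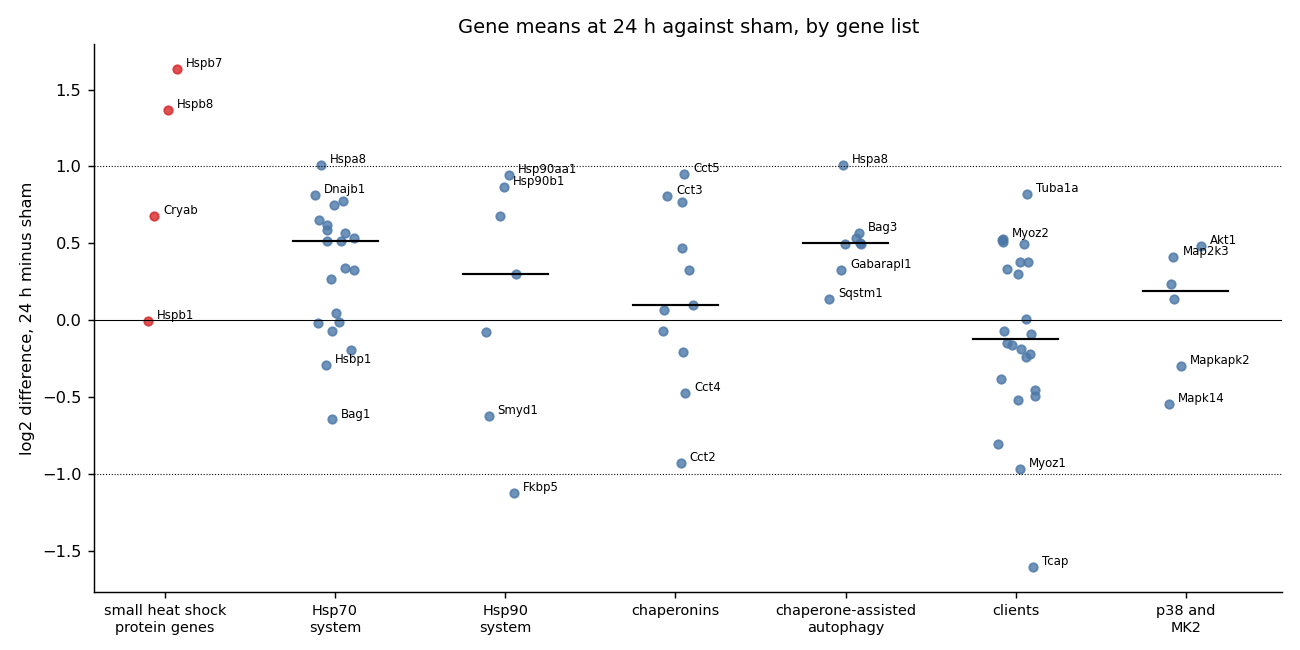
Log2 difference of gene means at 24 h from sham (vertical axis) for the 4 small heat shock protein genes (red) and for the genes of 6 lists (blue), with a point per gene, jittered sideways, and a bar at each list's median. Dotted lines mark 2-fold. Hspb7 at 1.64 and Hspb8 at 1.37 lie above every gene of the 6 lists, of which Hspa8 at 1.01 is the highest.

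Genes with the most similar profile were found by the root mean square difference of log2 ratios to Pre over the 6 arrays, among 3176 other genes. Nearest to the Hspb7 mean were Chrd, a bone morphogenetic protein antagonist (0.34), Asb11 (0.37), the polyamine enzyme gene Odc1 (0.39), Atf4, a transcription factor of the stress response (0.42), and Rprd1b (0.43). Nearest to Hspb8 were Mybbp1a (0.19), the ubiquitin-conjugating enzyme gene Ube2l3 (0.22), Hspa8 (0.24), the myosin light chain gene Myl12b (0.26) and the proteasome gene Psmb2 (0.26). The Cryab mean had Rhobtb2, Galnt2, Znfx1, Ywhag and Rpl36a within 0.12. That of Hspb1, which stayed near Pre, had Rida, Zim1, Kat2b, Gcdh and Rps6kc1 within 0.08. Taking the mean of the 4 upper Hspb7 probes instead, the nearest gene was Vamp8, a vesicle fusion protein with 1 probe, at 0.34, followed by Trim63, the muscle ubiquitin ligase MuRF1, at 0.62. Vamp8 read 1.74 in sham and 1.82, 1.45, 2.74, 2.48 and 3.09 on the paced arrays in order of time. Its 5 paced arrays fell in the same order as those of the Hspb7 mean, but it stood higher in sham. Nearest to the single Cryab probe BG793975 was Myl12b (0.23), followed by Plin2, which coats lipid droplets (0.30).

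**Figure D5:**
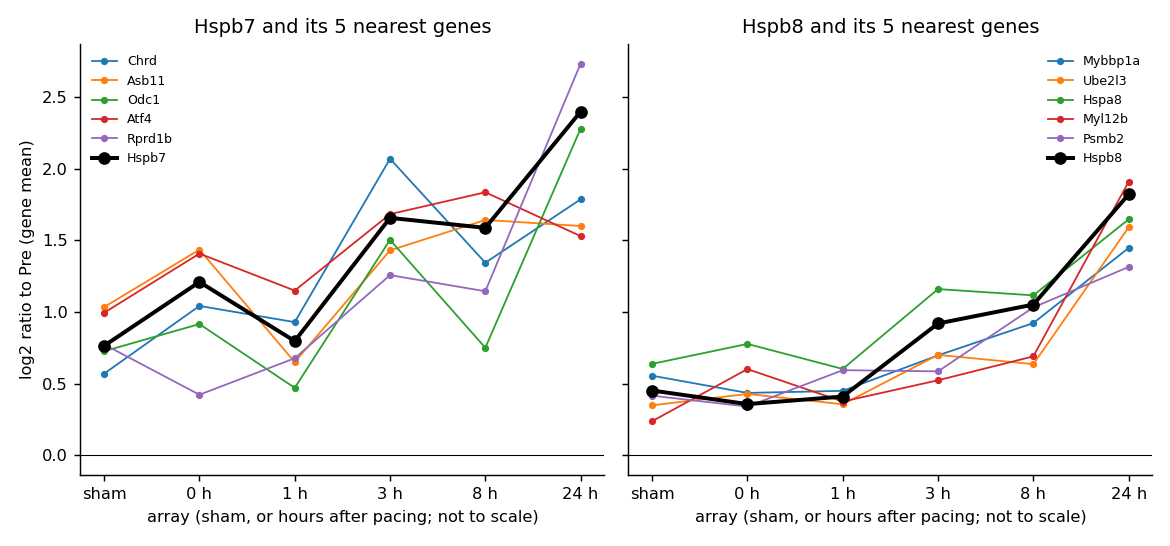
Log2 ratio to Pre (vertical axis) of the gene means of Hspb7 (left) and Hspb8 (right) in black, each with its 5 nearest genes in colour, on the 6 arrays (horizontal axis, not to the scale of time). Hspb8 and its neighbours lie between 0.24 and 0.78 in sham, at 0 h and at 1 h, and between 1.31 and 1.91 at 24 h.

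In whole muscle, a lower or higher ratio cannot tell fewer or more cells of a type from less or more RNA per cell. Ratios also cannot show whether a marker was present. The 12 measured fibre markers lay between -0.57 and 0.27 against Pre at 24 h. The 11 measured markers of other cell types (endothelium, fibroblasts, smooth muscle, leukocytes, fat and red blood cells) lay between -0.71 and 0.09 at 24 h, with a median of -0.17. Against sham at 24 h the 11 lay between -0.91 (Pdgfra, a fibroblast marker) and 1.01 (Myl9, smooth muscle), with a median of -0.44. Myl9 was the 1 of 11 that was 2-fold higher, where 3.02% of all genes were, with its sham value at -1.18 against Pre. Acta2, the other measured smooth muscle marker, stood at -0.70 from sham.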

How the data were processed

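The data are 6 arrays with 2 channels, 1 per group. The deposited values are log10 ratios, 1 for each probe on each array, with no signals or quality marks, so the intensity behind a ratio is unknown and the number of arrays limits precision. The log base was read from 97 cells with the rounding residue of a ratio of 1. Scanner, background correction and normalisation: not given in the sources used here.

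Ratios were converted to log2. Exact zeros (within 1e-15), empty cells and values shared within a run of 289 probes were set to missing, leaving 87.3% to 95.2% of probes per array. Zeros numbered 201 in sham and 665 to 1762 on the paced arrays. The sham array also had 485 empty cells and 154 shared values, so it may have been processed differently, and every comparison with sham carries that. Each array was centred on its median (largest shift -0.013). A gene is the mean of its measured probes with 1 symbol. Of 6609 such probes, 6599 matched GRCm38.p6 gene names by Entrez ID. All 4 members were among the 3180 of 3939 genes measured on all 6 arrays, but 1 Hspb7 probe was missing at 24 h.

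Differences are paced minus sham, with 2-fold as threshold. No test was possible with 1 array per group. Named list genes are those 2-fold from both sham and Pre at 24 h, plus the 2 highest and 2 lowest differences from sham in each list. Hspb7 probe sets were formed after seeing values. Members and lists were chosen with earlier results of these data known. Probe sequences were not used here, so which transcript or related gene each probe binds was not checked. Calculations used Python 3.11.15, pandas 2.3.3 and matplotlib 3.10.9. Gene differences and calls were checked on simulated data with less noise than the arrays and 1 shift for all probes of a gene. That check covers the arithmetic, not how well calls work on these arrays, and did not cover the nearest genes. Alternatives kept zeros, left out centring, scaled arrays to a common robust SD, took probe medians, used probes measured on all 6 arrays, centred per run, used Pre in place of sham, lowered the threshold to 1.5-fold, and took the largest difference for nearest genes.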

Additional observations from a re-analysis of the deposited data

How the results depend on the processing

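No paired analysis was possible because each group had 1 array, and leaving out a replicate was not possible either. The 4 genes at 5 times gave 20 differences from sham. Under 7 alternatives, 127 of 140 values moved by less than the probe SD (for Hspb8, the median probe SD of other genes). Some of these could not move. Probes measured on all 6 arrays gave the main value again for Hspb1, Cryab and Hspb8, as did the probe median for Hspb8. The called differences, those of Hspb7 and Hspb8 at 24 h, kept their sign. Smaller ones could change it: Hspb1 at 1 h went from 0.20 to -0.02 with scaling and -0.13 with Pre. Scaling to a common spread gave 0.012 for Cryab, 1.03 for Hspb7 and 0.49 for Hspb8 at 1 h, and 1.19 for Hspb8 at 8 h. Hspb7 then passed 2-fold above sham and Pre first at 1 h and Hspb8 at 8 h, in place of 24 h. Hspb7 passed first at 3 h with the median of probes and with probes measured on all 6 arrays. Setting Pre in place of sham gave -0.18 for Hspb1 at 3 h, 0.17 and 0.10 for Cryab at 0 h and 1 h, 0.80 for Hspb7 at 1 h, and 0.36, 0.41, 0.92, 1.05 and 1.82 for Hspb8 from 0 h to 24 h. Among the 39 other chaperone genes at 24 h, the count 2-fold above sham went from 1 to 0 with scaling, 2 with the median of probes, 0 with centring per run and 13 at 1.5-fold. The count below went from 1 to 0 with scaling and 4 at 1.5-fold. Of the 5 nearest genes, the largest difference in place of the root mean square kept 2 for Hspb7, 4 for Hspb8, 5 for Cryab and 3 for Hspb1.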
